A study of Arabidopsis thaliana with 48 samples.

Results

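The genes described here differed between ACC-treated and control Arabidopsis roots at 4 h and by less than 0.3 log2 units at 24 h. Of 22739 probe sets (groups of array probes that report 1 transcript or a few close ones), 98 met the rule, 48 higher on ACC at 4 h and 50 lower. The rule asked for a mean difference of at least 0.7 log2 units at 4 h with no overlap between the 3 ACC and the 3 control arrays. It also asked for a difference under 0.3 in size at 24 h, and for a mean difference over 0.5, 1 and 2 h under 0.6 in size. The members were thus chosen by their values at 0.5, 1, 2, 4 and 24 h, which are given as a description, while those at 0, 8 and 12 h took no part and could be tested. Of the 98, 52 carry 1 gene symbol in the platform annotation, 4 carry several and 42 are not listed there and are known by probe set ID alone.

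The samples are roots of Arabidopsis thaliana seedlings, for which the labels name no genotype. The plants grew for 6 days in continuous light on a nylon mesh over MS medium with sucrose, and the mesh was then laid on new medium, either without ACC or with 1 µM of it. Roots were taken within 5 min of transfer (called 0 h) and after 0.5, 1, 2, 4, 8, 12 and 24 h, with 3 Affymetrix arrays for each of the 16 combinations and 48 arrays in all. Every group, controls included, had thus been through the same transfer.

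ACC (1-aminocyclopropane-1-carboxylic acid) is the direct precursor of ethylene, and plant cells convert it with the enzyme ACC oxidase. Ethylene binds receptors in the endoplasmic reticulum and so releases EIN2 and the transcription factor EIN3, which switches on further transcription factors. In roots ethylene slows elongation, promotes root hairs and feeds back on its own perception, so a transcript may go up or down for a limited time. Differences below are ACC minus control on the log2 scale with the standard error (SE) of a linear model over all arrays. Adjusted p-values come from limma, with the Benjamini-Hochberg adjustment made across the 22739 probe sets and n = 3 arrays per group.

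Facts of the whole array set that bear on these genes are few. All arrays had nearly the same mean signal (7.70), and the median correlation of an array with the others ran from 0.966 to 0.983, apart from replicate 3 of the 0.5 h ACC group at 0.945. Replicate 3 of the 1 h ACC group is called ACC in its title and auxin in its source name, and was kept with ACC. Without the former array 46 probe sets met the rule as higher and 48 as lower, and without the latter 48 and 49. The GAPDH control probe sets, whose 3' minus 5' difference is a sign of RNA quality, gave 0.98 ± 0.20 on ACC and 0.67 ± 0.17 on control medium at 4 h (SD, n = 3). At 8 h the values were 1.12 ± 0.20 and 0.73 ± 0.14, and at 12 h 1.01 ± 0.15 and 0.82 ± 0.12. The media were farthest apart at 24 h (1.20 ± 0.19 and 0.70 ± 0.35) and next at 1 h (0.99 ± 0.12 and 0.57 ± 0.15), times that the rule used. With this measure as a covariate all 98 members kept their direction at 4 h. The medians were 0.737 for the higher and -0.769 for the lower ones. The rule chose the members by this same contrast, so the kept direction carries little information. Differences at 24 h with the covariate are not reported here. Single members moved either way, ALDH2C4 from 0.80 to 0.46, below the limit of 0.7, and AT3G16560 from 1.12 to 1.20. The root hair markers EXPA7 and EXPA18, 2 of 7 listed and measured, had mean signals of 9.24 and 9.63 (percentiles 80.9 and 85.8 of all probe sets). The 8 listed markers each of endodermis, stele and root cap were not among the probe sets with 1 symbol. The log2 of the summed signal of EXPA7 and EXPA18 at 4 h was 10.24 to 11.07 on control medium and 11.36 to 11.52 on ACC. The media overlapped at 8 h (10.07 to 10.98 and 10.70 to 11.23) and at 12 h (9.51 to 11.22 and 10.82 to 11.12). Neither gene had an adjusted p under 0.05 in limma at 4, 8 or 12 h. Of the 16 listed markers of green shoot tissue 3 were measured (RCA, LHCB4.1 and LHCB4.2). The log2 of their summed signal was 9.06 to 9.20 on control medium and 8.84 to 9.65 on ACC at 4 h. At 8 h that value was 9.04 to 9.09 and 9.54 to 10.07, and at 12 h 8.62 to 9.08 and 9.69 to 10.12. Of the 3 genes, 0 had an adjusted p under 0.05 in limma at 4 h, 1 at 8 h and 2 at 12 h. The part of cell makeup in the members' differences was not tested, and in whole roots fewer cells of a type and less RNA per cell cannot be told apart.

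**Figure D1:**
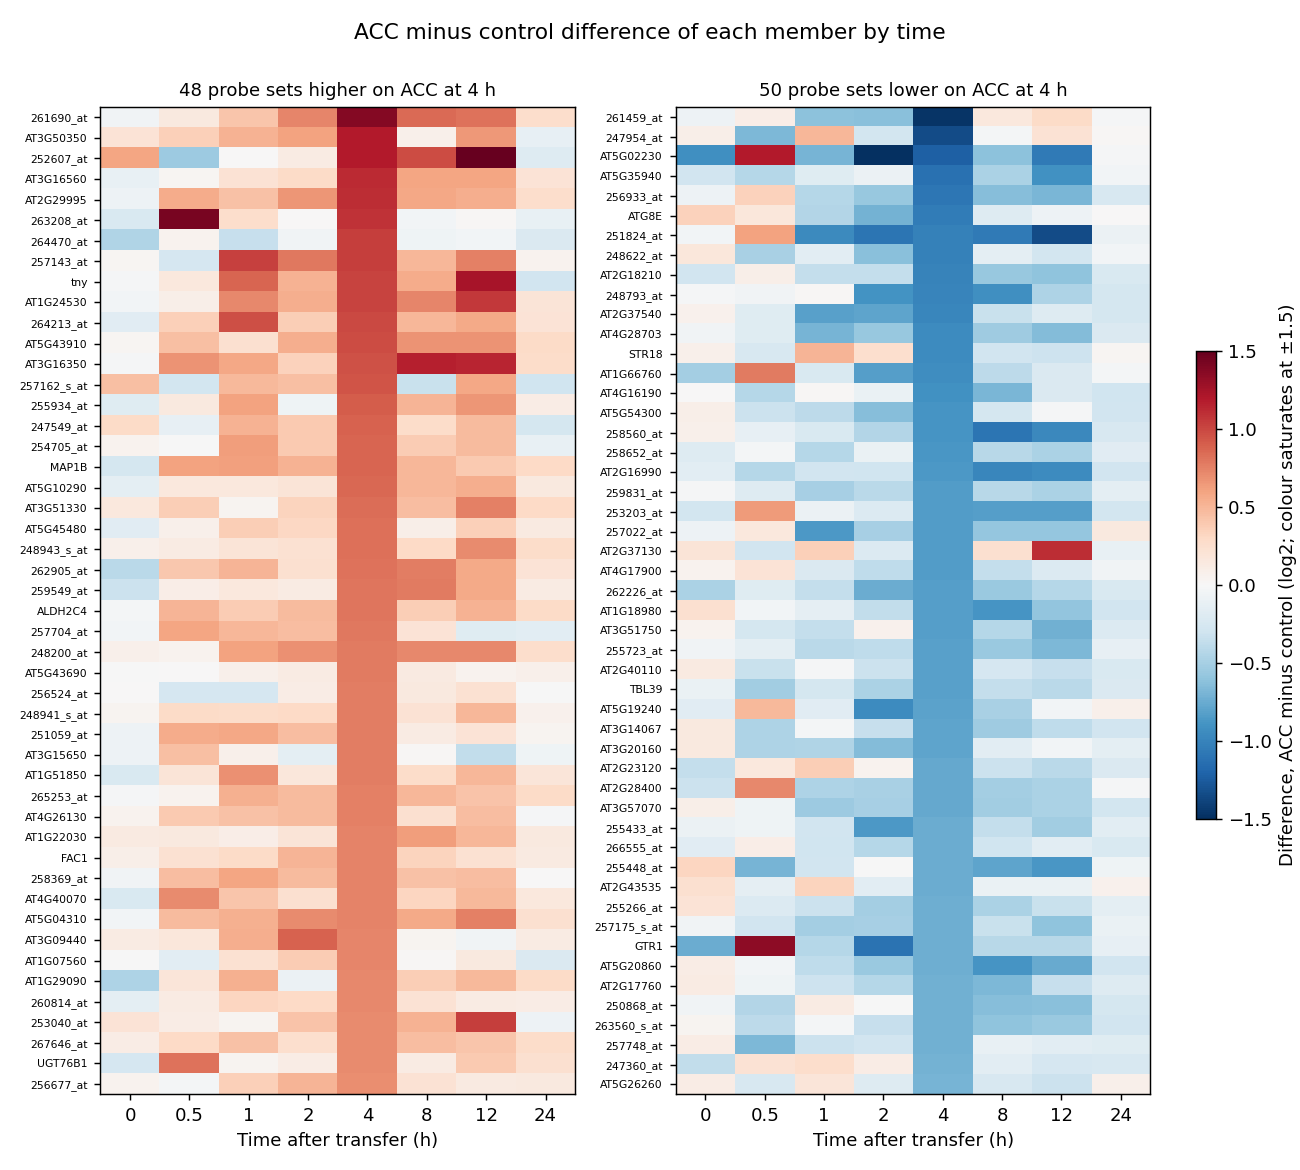
Mean difference of ACC minus control (log2, colour) for each of the 98 probe sets (rows, ordered by the size at 4 h) at each of the 8 times (columns), with the 48 higher ones on the left and the 50 lower ones on the right. The 4 h column is uniform because the rule made it so, and many rows keep a paler shade of the same colour at 8 and 12 h.

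Among the transcripts higher on ACC at 4 h, the differences ran from 0.70 to 1.37 with a median of 0.799, and 10 of the 48 were at least 1. The largest with a symbol was AT3G50350, whose log2 signal was 9.08, 8.88 and 7.95 on the 3 control arrays and 9.72, 9.87 and 9.87 on the ACC arrays. The ACC arrays lay close together and above all controls, and the third control lay far below the other two. The difference was 1.18 ± 0.28 (2.27-fold). AT3G16560, a gene of the type 2C protein phosphatase family that removes phosphate from signalling proteins, read 7.52, 8.11 and 7.64 against 8.88, 8.38 and 9.37 on ACC, a difference of 1.12 ± 0.26. AT2G29995 read 10.11, 10.31 and 10.35 against 11.48, 11.10 and 11.50, a difference of 1.1 ± 0.18 and a gap of 0.75 between the nearest arrays of the groups.

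Regulatory genes stood beside these. TINY (symbol tny), an AP2-type transcription factor of the DREB branch of the ERF family, was at 9.50, 9.75 and 9.27 on control medium and 10.24, 10.75 and 10.55 on ACC, a difference of 1.01 ± 0.36. AT3G16350, which encodes a MYB-related transcription factor, was at 7.88, 7.96 and 8.38 against 9.34, 8.70 and 9.05 (0.96 ± 0.22). All 3 ACC arrays of both genes lay above the controls, with the nearest arrays 0.49 and 0.31 apart. Of genes for leucine-rich repeat receptor kinases, AT5G10290 was higher by 0.87 ± 0.15, AT1G51850 by 0.76 ± 0.26 and AT1G07560 by 0.73 ± 0.24. AT1G24530, of the WD40 repeat family of protein scaffolds, was higher by 1.01 ± 0.23 and AT5G43910, of the pfkB family of sugar and nucleoside kinases, by 0.98 ± 0.16.

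Other higher members have roles in metabolism and protein handling. MAP1B, a methionine aminopeptidase that trims the first residue of new proteins, was higher by 0.87 ± 0.20, and AT3G51330, of the aspartyl protease family, by 0.84 ± 0.24. ALDH2C4, an aldehyde dehydrogenase that makes ferulic and sinapic acid, was at 11.71, 11.93 and 11.49 against 12.38, 12.78 and 12.36 (0.80 ± 0.28). FAC1, the AMP deaminase of purine metabolism, had the values 9.62, 9.75 and 9.89 against 10.42, 10.69 and 10.39 (0.75 ± 0.12). AT3G09440, a cytosolic heat shock protein of the Hsp70 class, was higher by 0.73 ± 0.24 and UGT76B1, which glucosylates salicylic acid and isoleucic acid, by 0.70 ± 0.21. The SE of FAC1 was the lowest among all members, whose median SE was 0.23.

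Among the transcripts lower on ACC at 4 h, the differences ran from -0.70 to -1.47 with a median of -0.831. ATG8E, a ubiquitin-like protein that is joined to the autophagosome membrane, read 10.63, 9.90 and 10.26 on control medium and 9.06, 8.98 and 9.62 on ACC. Each ACC array was below each control array, by 0.28 at the nearest, and the difference was -1.05 ± 0.39 (2.06-fold lower). AT5G35940, a jacalin-type lectin gene, read 9.36, 8.83 and 10.39 against 8.33, 8.40 and 8.49 (-1.12 ± 0.43), and AT2G18210 read 9.36, 9.41 and 10.66 against 9.11, 8.25 and 9.07 (-1.0 ± 0.51). In both genes the third control array stood more than 1 unit above another control. AT5G02230, of the HAD hydrolase family, had the largest difference of a gene with a symbol, -1.23 ± 0.65, and the widest SE among them.

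Several other named lower members encode enzymes or transporters, while 20 of the 50 lower probe sets have no listed gene. AT2G37540, a short-chain dehydrogenase family gene, was at 8.40, 8.25 and 8.98 against 7.65, 7.79 and 7.26 (-0.98 ± 0.21), with all ACC arrays below all controls by at least 0.46. STR18, a sulfurtransferase of the rhodanese type, differed by -0.94 ± 0.28, the cupin family gene AT4G28703 by -0.94 ± 0.23, and AT1G66760, of the MATE family of efflux carriers, by -0.93 ± 0.37. AT2G16990, of the major facilitator superfamily of membrane carriers, differed by -0.86 ± 0.23, although its second control array (7.45) all but touched an ACC array (7.44). Of protease genes, the papain-type AT4G16190 differed by -0.91 ± 0.27, the subtilase gene AT3G14067 by -0.79 ± 0.19 and the aspartyl protease gene AT2G17760 by -0.73 ± 0.15. Of genes that act on the cell wall, TBL39, of a family of polysaccharide acetyltransferases, differed by -0.81 ± 0.16, AT1G18980, a germin-like gene, by -0.83 ± 0.22 and AT5G20860, a pectin methylesterase family gene, by -0.73 ± 0.15. GTR1, a plasma membrane importer of glucosinolates, had a difference of -0.73 ± 0.56. It was 1 of 4 members whose 4 h difference was under 2 SE.

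The nearest ACC and control arrays of a member at 4 h were between 0.00 and 0.99 apart, with a median of 0.41. The third control array was the one farthest from ACC in 28 of 48 higher and 34 of 50 lower members. Without it 53 probe sets met the rule as higher and 44 as lower, and 33 and 29 of these were the original members. In the linear model 33 higher and 25 lower members also passed the threshold at 4 h, where 4.18% of all probe sets did (2.06% higher and 2.12% lower), and since the rule used that contrast the share carries no further information. Near the limit of 0.7, 44 members had a 4 h difference under 0.8 in size, and 64 other probe sets between 0.6 and 0.7 met all other parts of the rule. UGT76B1 (0.70) and AT5G26260 (-0.70) were just inside, and AT2G23680 (0.69) and AT2G48030 (-0.69) just outside. Near the limit at 24 h, 45 members had a difference of at least 0.2, and 38 other probe sets lay between 0.3 and 0.4.

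Set against the 0 h arrays, the difference at 4 h lay mostly in the ACC roots. The median change from 0 to 4 h in the higher members was 0.735 on ACC and -0.105 on control medium, and in the lower members -0.789 and 0.0116. On ACC all 98 had moved in the direction of their difference, as had 17315 of all 22739 probe sets. Of the 592 probe sets that met the 4 h and early parts of the rule, 591 had. The ACC change was the bigger of the media in 94 members, against 14292 of all probe sets and 574 of the 592. Since the rule used the 4 h arrays, these counts are a description. ATG8E moved by -1.45 on ACC and by -0.06 on control medium, and AT2G29995 by 1.22 and 0.04. In 5 members the control roots had moved the other way by more than 50% of the difference, against 8180 of all 22739 probe sets and 33 of the 592. The clearest of the 5 was AT2G37130, a class III peroxidase gene, which was 0.82 higher at 4 h than at 0 h on control medium and 0.21 lower on ACC. The other named ones were AT2G43535 (0.45 on control medium and -0.53 on ACC), AT5G26260 (0.42 and -0.40) and UGT76B1 (-0.38 and 0.57).

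**Figure D2:**
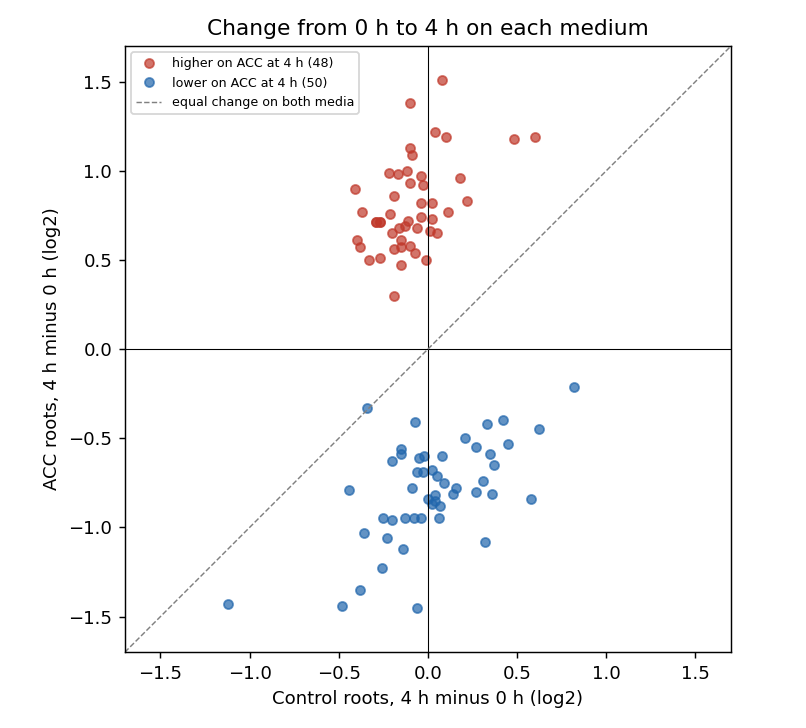
Change of mean log2 signal from 0 h to 4 h in control roots (x axis) and ACC roots (y axis) for the 48 higher (red) and 50 lower (blue) members, each point 1 probe set and the dashed line an equal change on both media. Most points lie near the vertical axis, with medians of -0.105 and 0.0116 on control medium against 0.735 and -0.789 on ACC.

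At 8 and 12 h, times that the rule did not use, most members had a smaller difference of the same direction and some were still past the threshold. At 8 h 45 of 48 higher and 48 of 50 lower members kept the direction they had at 4 h, against 16053 of all 22739 probe sets. The medians were 0.378 and -0.452 where all probe sets had -0.0044. At 12 h 44 and 47 did, against 15409 of all probe sets, with medians of 0.495 and -0.418 (all probe sets -0.0139). The median ratio of the 8 h to the 4 h difference was 0.502 over all 98 and 0.623 over all probe sets. For 12 h it was 0.567 and 0.55, so at that time the members' ratio was no smaller than that of all probe sets. At 8 h 16 members (16.3%) passed, 9 higher and 7 lower, all in their 4 h direction, against 4.89% of all probe sets (2.42% higher and 2.48% lower). At 12 h 16 (16.3%) passed, 11 higher and 5 lower, against 5.43% (2.89% and 2.53%). In 26 higher members all ACC arrays were above all controls at 8 h, and in 28 lower members all were below, against 11.6% and 13.0% of all probe sets. At 12 h these counts were 32 and 27, against 11.8% and 12.4%. Passing at both times were 11 members, at 8 h alone 5 and at 12 h alone 5, so that 21 members, 21.4% of the 98, passed at 1 or both against 6.74% of all probe sets.

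Single arrays moved these counts of calls. For 8 h it was 11 without ACC replicate 1 or control replicate 1, 10 without ACC replicate 2 or control replicates 2 or 3, and 7 without ACC replicate 3. At 12 h it was 9 without ACC replicate 2 or control replicate 1, and 13 to 15 without any other single array of that time. The share over all probe sets went down as well, from 4.89% to between 2.65% and 3.84% at 8 h and from 5.43% to between 2.84% and 4.81% at 12 h. With the GAPDH measure as a covariate, 10 members passed at 8 h (4.29% of all probe sets) and 15 at 12 h (5.27% of all).

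AT3G16350, the MYB-related gene, had the largest difference of all 98 at 8 h. Its log2 signal at 8 h was 8.10, 7.97 and 8.01 on control medium and 9.17, 8.87 and 9.56 on ACC, and at 12 h 8.31, 8.04 and 8.14 against 9.25, 9.44 and 9.24. At both times the ACC arrays stood clear of the controls. The differences of 1.17 ± 0.22 at 8 h (adjusted p = 0.000882) and 1.15 ± 0.22 at 12 h (adjusted p = 0.00106) in limma were larger than the 0.96 at 4 h, and that at 24 h was 0.27. Leaving out replicate 2 at all times took the 12 h adjusted p in limma to 0.0803, within a range of 6.95e-06 to 0.0803 over the alternatives.

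Other higher members rose at 1 or both of these times. AT5G43910, the pfkB gene, read 7.44, 7.34 and 7.56 against 8.05, 8.05 and 8.25 at 8 h, with all ACC arrays above. It was higher by 0.67 ± 0.16 at 8 h (adjusted p = 0.00637) and 0.68 ± 0.16 at 12 h (adjusted p = 0.00519) in limma. AT5G04310, of the pectate lyase family that cuts wall pectin, was higher by 0.57 ± 0.16 (adjusted p = 0.0288) and 0.76 ± 0.16 (adjusted p = 0.00257) in limma, and the receptor kinase gene AT5G10290 by 0.50 ± 0.15 (adjusted p = 0.0474) and 0.54 ± 0.15 (adjusted p = 0.0267). AT1G22030 passed at 8 h (0.62 ± 0.17, adjusted p = 0.0271 in limma). It lost that call with the GAPDH covariate (0.53, adjusted p = 0.105), and at 12 h stood at 0.50. TINY read 9.20, 9.19 and 9.21 against 10.5, 10.84 and 9.96 at 12 h and was higher by 1.23 ± 0.36 (adjusted p = 0.0337 in limma), while its 8 h difference of 0.56 did not pass. AT1G24530 was higher at 12 h by 1.06 ± 0.23 (adjusted p = 0.00344 in limma) and stood at 0.73 at 8 h (adjusted p = 0.0615, and 0.0419 with the replicate number as a block).

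Of these calls, that of AT5G43910 at 8 h was lost without ACC replicate 3 and at 12 h without control replicate 1. Both its calls were also lost without replicate 1 or replicate 2 at all times (adjusted p in limma of up to 0.121 at 8 h and 0.187 at 12 h). The 12 h call of AT1G24530 was lost in the same 2 omissions (adjusted p in limma of 0.0872 and 0.0932). The 8 h call of AT5G10290 was lost without any 1 of 5 arrays of that time, its 12 h call without any 1 of 4 and on the 12 h arrays alone (adjusted p in limma of up to 0.263), and that of AT5G04310 without any 1 of 5. The 12 h call of TINY was lost without any 1 of 5 arrays of that time. Over all alternatives the highest adjusted p in limma was 0.355 for AT5G10290 and 0.204 for AT5G04310 at 8 h, 0.382 for TINY at 12 h and 0.264 for AT1G22030 at 8 h, whose call also ended without any 1 of 5 arrays of that time.

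Of the lower members, AT5G20860, the pectin methylesterase gene, had the lowest adjusted p at 8 h among all 98 in limma. It read 7.06, 6.94 and 7.08 against 5.94, 6.15 and 6.32 at 8 h, and 6.84, 6.89 and 6.66 against 5.96, 6.03 and 6.13 at 12 h. No ACC array reached the controls at either time. The differences were -0.89 ± 0.15 (adjusted p = 0.000261) and -0.75 ± 0.15 (adjusted p = 0.00168) in limma, and the 8 h call held in each alternative tried. The 12 h call was lost without replicate 1 at all times (adjusted p = 0.104) and without replicate 2 (adjusted p = 0.0631) in limma. AT2G16990, the membrane carrier gene, fell at 8 h (-0.98 ± 0.23, adjusted p = 0.00599) and 12 h (-0.94 ± 0.23, adjusted p = 0.00799) in limma. Its arrays at 8 h were 8.22, 8.05 and 8.72 against 7.48, 7.35 and 7.23. AT1G18980, the germin-like gene, fell at 8 h (-0.88 ± 0.22, adjusted p = 0.0101 in limma), as did AT2G17760, the aspartyl protease gene (-0.67 ± 0.15, adjusted p = 0.00341). At 12 h they stood at -0.60 and -0.34 and did not pass. The 8 h call of AT2G17760 was lost without replicate 1 (adjusted p = 0.104) or replicate 2 (adjusted p = 0.0957) at all times in limma. Single arrays whose omission ended a call were control replicate 3 (AT2G16990 at 8 h), ACC replicate 2 at 12 h (AT2G16990) and ACC replicate 2 at 8 h (AT1G18980), with adjusted p-values over all alternatives of up to 0.127, 0.287 and 0.196.

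**Figure D3:**
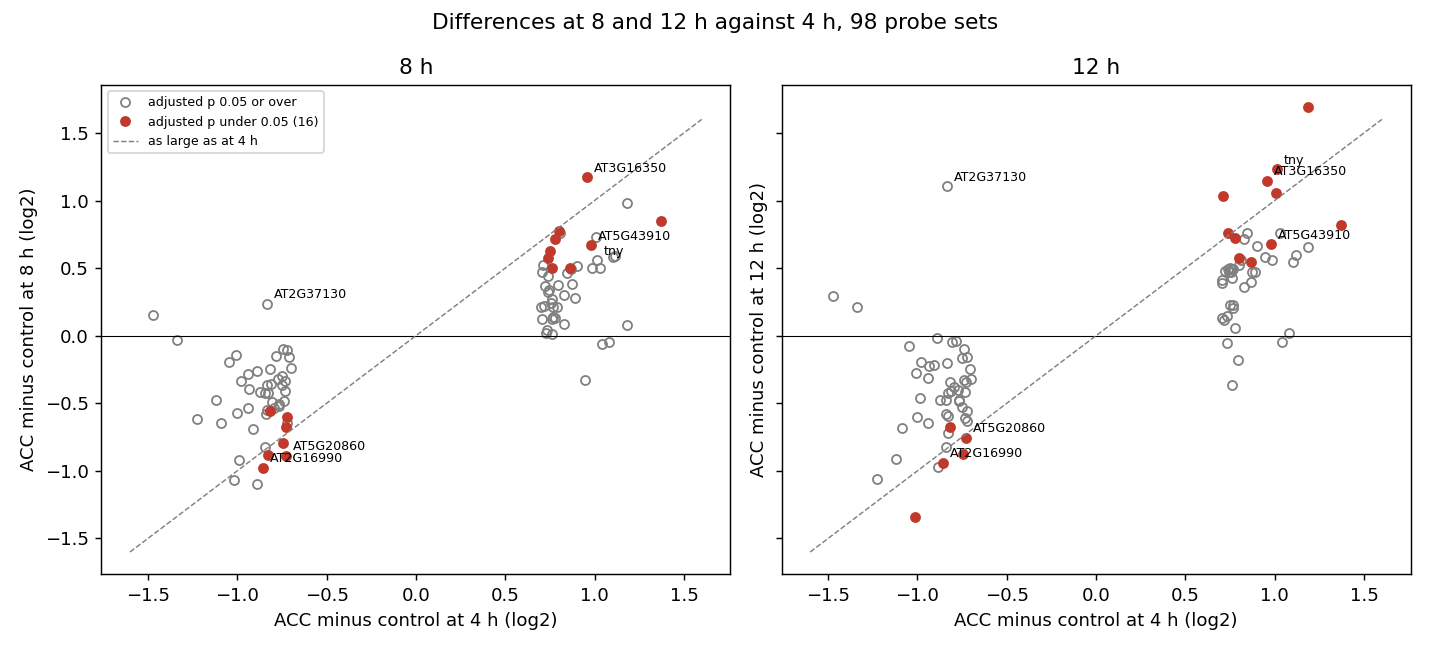
Difference of ACC minus control (log2) at 8 h (left) and 12 h (right) against that at 4 h for the 98 probe sets, filled where limma's adjusted p was under 0.05 (16 at each time), with a dashed line where the later difference equals that at 4 h. Most points lie between 0 and the line, AT3G16350 lies above it at both times and AT2G37130 is far on the other side at 12 h.

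In other members the groups overlapped again at 8 h. ATG8E read 10.33, 10.13 and 9.76 on control medium and 9.80, 9.68 and 10.15 on ACC at 8 h, so that the groups overlapped, with a difference of -0.20 ± 0.39. AT3G50350 read 9.09, 9.03 and 8.69 against 9.02, 9.34 and 8.69 at 8 h (0.08 ± 0.28), with the groups overlapping. At 12 h it read 8.54, 8.94 and 8.39 against 9.28, 9.58 and 8.98, so that all ACC arrays were again above the controls, with a difference of 0.66 (adjusted p = 0.216 in limma). In all, 21 of the 98 members had at 8 h less than 25% of their 4 h difference, those of opposite sign included. So had 8255 of all 22739 probe sets, and 39 of the 592 that met the 4 h and early parts of the rule. Among probe sets with no symbol, the 2 lowest at 4 h, 261459_at (-1.47 ± 0.68) and 247954_at (-1.34), stood at 0.15 and -0.03 at 8 h, whereas the highest, 261690_at (1.37 ± 0.21), was higher by 0.85 at 8 h (adjusted p = 0.00951 in limma). AT2G29995 lay between these, with 0.58 ± 0.18 at 8 h and 0.55 ± 0.18 at 12 h. Its ACC arrays were above all controls at both times, and its adjusted p in limma was 0.0578 at 8 h, or 0.0331 with the replicate number as a block.

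**Figure D4:**
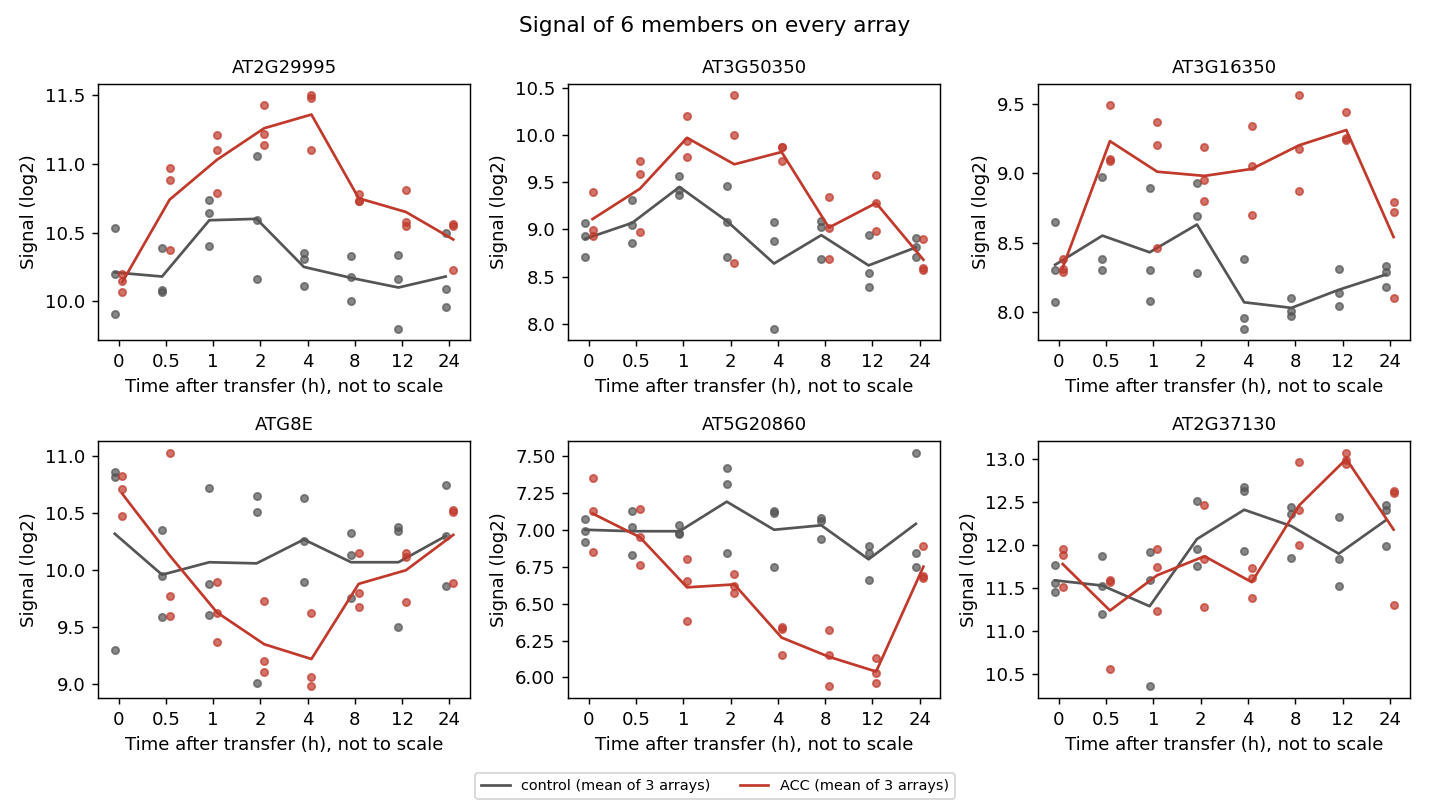
Log2 signal of 6 members on every array (points) against time after transfer (evenly spaced), in control roots (grey) and ACC roots (red), with lines through the means of 3 arrays. ATG8E overlaps again from 8 h and AT3G50350 at 8 h but not at 12 h, AT2G29995, AT3G16350 and AT5G20860 stay apart to 12 h, and AT2G37130 changes sides between 4 and 12 h.

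The 98 were only part of the probe sets that met the 4 h and early parts of the rule, 592 in all. In 200 higher and 288 lower ones the 24 h difference was at least 0.3 in the 4 h direction, and in 6 it was at least 0.3 the other way. The lasting 200 had a median difference of 0.893 at 8 h and 0.922 at 12 h, and the lasting 288 had -0.903 and -0.877. For the 98 these medians were 0.378 and 0.495, and -0.452 and -0.418. At 8 h 50.0% of the lasting higher and 59.0% of the lasting lower ones passed the threshold, against 18.8% and 14.0% of the transient ones. These shares are a description, and the difference between the groups of genes was not tested.

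The largest difference of a member did not always fall at 4 h. It did in 77 of the 98, while in 8 it was before 4 h, in 5 at 8 h and in 8 at 12 h. The limits of the rule favour 4 h and bar 24 h, so these counts are a description. The largest difference fell at 4 h in 3120 of all 22739 probe sets. Among the 592 that met the 4 h and early parts of the rule it did in 303. AT3G09440, the Hsp70 gene, had 0.55 at 1 h and 0.89 at 2 h, then 0.73 at 4 h and 0.04 at 8 h. Before 4 h the medians of the higher members were 0.165, 0.429 and 0.377 at 0.5, 1 and 2 h, and those of the lower members -0.142, -0.295 and -0.428. These values were limited by the rule to a mean under 0.6. At 2 h 44 higher and 46 lower members had the direction of 4 h, against 14778 of all 22739 probe sets. At 0.5 h 40 and 34 did, against 13202 of all probe sets. At 24 h, where the rule kept differences under 0.3, 34 higher and 43 lower members had it, against 15031 of all probe sets. Their medians at 24 h were 0.134 and -0.174.

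Some lower members were higher on ACC at 0.5 h. Differences over 0.5 were found there in 6 of the 50, among them GTR1 (1.35), AT5G02230 (1.19), AT1G66760 (0.78) and AT2G28400 (0.72). Without the 0.5 h ACC array that stood apart, 3 of 50 had such a difference, with GTR1 at 1.09, AT5G02230 at 0.66, AT1G66760 at 0.60 and AT2G28400 at 0.05. At 2 h GTR1 stood at -1.11 and AT5G02230 at -1.73, and at 0 h at -0.74 and -0.92. AT5G02230 read 9.56, 10.30 and 10.42 on control medium at 0.5 h and 10.79, 10.72 and 12.34 on ACC.

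At 0 h no member differed between the media in the test. None had an adjusted p under 0.05 in limma and 0 of 98 had an unadjusted p under 0.05, where 0.0% and 1.42% of all probe sets had. With array weights and on the 6 arrays of that time alone, again no member had an adjusted p under 0.05 in limma. Control roots did not change detectably in these genes between 0 and 8 h. There 0 members passed in limma (0.0% of all probe sets) and 1 had an unadjusted p under 0.05, against 2.70% of all probe sets. Whether the ACC effect differed between 8 and 12 h was tested as an interaction. No member passed it in limma (0.0% of all probe sets), and 0 of 98 had an unadjusted p under 0.05, against 0.581% of all. The SE of that contrast is wider than that of a single time, and these counts do not show equal effects.

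Relatives of members that share a gene symbol stem were set beside them, a choice made after the members were known. No measured ATG8 gene passed at 4 h in limma, ATG8E included (adjusted p = 0.138), and all lay below 0. ATG8F stood at -0.35 ± 0.18 (adjusted p = 0.393 in limma), ATG8H at -0.34 ± 0.19 and ATG8D at -0.06 ± 0.14. GTR2, the partner of GTR1 in glucosinolate loading, stood at -0.23 at 4 h and -0.48 at 8 h. Neither GTR1 nor GTR2 passed at these times in limma. The 8 measured genes of the UGT76 group of UDP-glycosyltransferases spanned -0.59 to 0.70 at 4 h, with UGT76B1 at the upper end and UGT76C1 at the lower. The 22 TRICHOME BIREFRINGENCE-LIKE genes had a median of 0.015 at 4 h, and TBL19, which is no member, differed by -0.49 ± 0.14 (adjusted p = 0.044 in limma). Beside MAP1B, the type 1 methionine aminopeptidase genes MAP1A, MAP1C and MAP1D stood at 0.16, 0.19 and 0.00.

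Some members were neighbours in the genome. In the gene order of the RefSeq TAIR10.1 annotation, AT5G45480 on chromosome 5 lies 1 place from AT5G45490 and 1 place from AT5G45470. These belong to 3 member probe sets, all higher on ACC at 4 h. The probe set of AT5G45480 was higher by 0.83 ± 0.22, that of AT5G45490 and AT5G45440 by 0.83 and that of AT5G45470 and AT5G45460 by 0.76. The last pair of probe sets each match 2 genes, so which gene of the cluster they report is uncertain. No other members lay within 5 places of each other among those with a listed gene. Of all 98 probe sets, 5 carry the platform's mark for several matching transcripts.

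There were 17 lists of hormone, clock, nutrient, wall, defence and root cell genes. Those of ERF factors, jasmonate, nutrient uptake, Casparian strip and suberin, cell cycle and aquaporins had no measured gene. The 43 measured genes of the other lists held 0 members, and with 98 members among 22739 probe sets that count carries no information. Of these 43, 2 were higher and 4 lower at 4 h in limma, 3 and 7 at 8 h, and 5 and 7 at 12 h, where 4.18%, 4.89% and 5.43% of all probe sets passed. All 4 lower at 4 h were among 12 measured genes of the list for wall loosening and cellulose synthesis. The 12 were all expansin, expansin-like or XTH wall enzyme genes, with none for cellulose synthesis. The lists held 444 symbols, so few of their genes could be followed on probe sets with 1 symbol.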

How the data were processed

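The 48 arrays hold labelled cRNA made from total RNA by a 3' priming protocol, per the labels' protocols. The authors deposited 1 table of log2 probe set signals between 0 and 15.06. That the scale is log2 is read from this range. For the probe summary, background correction and normalization, the method is not given in the sources used here. Array means were 7.70 and medians 7.43 to 7.64, so differences are relative to the average probe set. Of 22810 probe sets, 64 controls and 7 with an exact 0 were left out. Symbols came from the platform annotation (13507 probe sets with 1, 503 with several, 8729 not listed) and were updated in RefSeq for 13430.

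limma 3.58.1 fitted 16 group means to the 48 arrays in R 4.3.3 (32 residual degrees of freedom, prior 3.99, median residual SD 0.172). Each contrast was adjusted over 22739 probe sets with a threshold of 0.05. Tables and figures were made in Python 3.11.15 with pandas 2.3.3 and matplotlib 3.10.9. On simulated data with independent noise and changes at 8 h alone, 67, 67 and 66 probe sets were changed by 0.5, 1 and 2 log2 units. The 8 h contrast over 22739 probe sets recovered 34.3%, 88.1% and 100% of them, with 4 false calls. In the real data 1113 probe sets passed at 8 h and array deviations were in part correlated, so these shares do not give the power of the real test. The number of arrays limits the precision. The labels do not say that replicates are separate cultures, so p-values cover only how these samples vary, which may be technical.

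The members and gene lists were chosen with earlier results of these data known. Named genes were the 12 largest in each direction at 4 h, the 6 largest called at 8 or 12 h, and those closest to the limit of 0.7 inside and outside. AT1G51850, FAC1, AT3G09440, AT3G14067, TBL39, GTR1, AT2G28400, AT2G43535, the unlisted probe sets and the gene relatives were named after their values were seen. The promoter strings planned were not searched, since sequences were not used here. Alternatives were quantile normalization, a filter keeping 15094 probe sets, another prior, array weights, a replicate block, a covariate for RNA quality, other limits in the rule, and fits without single arrays or replicates. No pair of arrays held identical values.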

Additional observations from a re-analysis of the deposited data

Results flagged for a closer look

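AT2G37130, a class III peroxidase gene, was lower on ACC at 4 h and higher at 12 h, with the groups apart each time. Its log2 signal at 4 h was 11.93, 12.67 and 12.63 on control medium and 11.62, 11.38 and 11.73 on ACC. At 12 h it was 11.84, 11.52 and 12.33 against 12.99, 12.94 and 13.07. The difference was -0.84 ± 0.35 at 4 h, 0.24 ± 0.35 at 8 h and 1.1 ± 0.35 at 12 h, and -0.11 at 24 h. The adjusted p of the 12 h value was 0.0546 in limma. It was under 0.05 in 6 of 18 alternatives, the replicate block among them (0.0244), and ranged from 0.000548 to 0.428. Every ACC array lay below the controls at 4 h and above them at 12 h. The difference between these times was not tested, since the rule chose the gene by its 4 h value.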

How the results depend on the processing

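The count of members past the threshold was 16 at 8 h and 16 at 12 h. That is 16.3% of members, against 4.89% and 5.43% of all probe sets. At 8 h it became 1 (1.02%, all 1.57%) with a minimum difference of 1, 39 (39.8%, all 16.7%) with array weights, 10 (10.2%, all 4.29%) with the GAPDH covariate and 28 (28.6%, all 6.02%) on the 6 arrays of that time. Without a replicate number or an array of that time it ran from 3 to 11, and the share of all probe sets from 1.33% to 3.84%. At 12 h it became 6 (6.12%, all 1.79%) with that minimum, 46 (46.9%, all 17.5%) with array weights and 25 (25.5%, all 5.40%) on the 6 arrays of that time. In the same omissions it ran from 2 to 15, and the share of all probe sets from 0.998% to 4.93%. The 2 without replicate 2 (2.04%) match the share of all probe sets (2.07%). Without the 0.5 h ACC array that stood apart both counts were 19 (all 5.72% and 6.25%), and without the array with the auxin label 15 and 16 (all 4.84% and 5.34%). With the replicate number as a block the counts were 20 (all 6.56%) and 22 (all 6.91%). Of 24 pairs of same-numbered ACC and control arrays, 16 had deviations correlated over 0.1 (range -0.26 to 0.41). At 8 h all 3 did (0.23, 0.13 and 0.23) and at 12 h 1 did not (0.06), so a shared source is possible but was not the same at every time, and the labels state none. The counts at 0 h, for control roots from 0 to 8 h and for the interaction stayed at 0 in all settings tried. The number of higher members, 48, became 10 with a 4 h limit of 1, 26 with a 24 h limit of 0.2, 21 with an early limit of 0.3 and 30 with each early time under 0.6, and ran from 49 to 81 without a replicate or 4 h array. The number of lower members, 50, became 9, 27, 27 and 29 under those limits and ran from 44 to 84. Leaving out replicates 1, 2 and 3 at all times kept 29, 25 and 18 of the higher and 29, 26 and 19 of the lower members. Quantile normalization kept 40 and 44.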

Other observations

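Further members with a symbol had values that fit none of the comparisons above. AT4G40070, a RING finger gene of the ATL type, was higher on ACC at 0.5 h by 0.71 and at 4 h by 0.74 ± 0.21, with 0.24 at 2 h between them. AT4G17900, which encodes a zinc-binding transcription factor of the PLATZ family, was at 10.02, 9.96 and 9.94 on control medium and 9.15, 8.89 and 9.38 on ACC at 4 h (-0.83 ± 0.21), and stood at -0.36 at 8 h and -0.20 at 12 h. AT3G57070, of the glutaredoxin family, read 8.83, 8.75 and 8.88 against 8.24, 7.91 and 8.02 at 4 h (-0.77 ± 0.22), with -0.52 at 8 h and -0.48 at 12 h. AT5G19240 had differences of -0.95 at 2 h, -0.81 ± 0.30 at 4 h and -0.04 at 12 h. The probe set 252607_at, with no listed gene, read 11.63, 10.88 and 11.37 against 12.69, 13.44 and 12.84 at 12 h, a difference of 1.69 ± 0.38 (adjusted p = 0.00406 in limma), and stood at -0.20 at 24 h. These genes were chosen after their values were seen.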
